A study of Bos taurus with 10 samples.

Results

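The proteasome genes were taken as every array probe whose gene name starts with PSMA, PSMB, PSMC, PSMD, PSME, PSMF or PSMG followed by a digit. This name rule took 104 of 43653 probes, which stood for 47 genes: 18 of the core particle (PSMA and PSMB), 21 of the cap (PSMC and PSMD) and 8 of the activators, inhibitor and assembly factors (PSME, PSMF and PSMG). The accessions of 82 of the 104 probes could be looked up in RefSeq, each with the same symbol as the file. PSMC3IP, a meiotic recombination protein named for binding PSMC3, is matched by its name but is no subunit, so 46 of the 47 belong to the proteasome or its assembly. PSMA8 and PSME3 had no probe under the rule and were not analysed here. For each gene the probe with the highest mean signal over the 10 arrays was used.

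The RNA came from embryos flushed from the uterus of superovulated cows 7 days after the first of 2 inseminations with frozen semen, at 108 and 120 h of the superovulation. The vehicle group (DMSO) held 2 samples, the group given 30 nmol/min senktide 4 samples and the group given 300 nmol/min senktide 4 samples. Senktide, an agonist of the neurokinin-3 receptor, ran into a vein of the cow for 2 h from 48 h of the superovulation, before the inseminations, and every group carried the superovulation. The labels do not say whether each sample stands for a cow of its own, nor how many embryos it pooled, so a p-value here measures the spread among these samples alone, and that spread may be technical. The extraction text of the labels names endometrium where the titles, source and tissue name embryos. The study asked if the infusion altered embryo quality and stage.

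The proteasome is the cell's main protease for proteins tagged with ubiquitin. Its core is a barrel of alpha rings, which gate the entry, around beta rings, in which PSMB6, PSMB7 and PSMB5 hold the cutting sites. A cap of PSMC ATPases and PSMD subunits binds the ubiquitin chain, removes it and threads the protein into the core. In immune cells and under interferon, PSMB9, PSMB10 and PSMB8 take the places of PSMB6, PSMB7 and PSMB5 and form the immunoproteasome, whose peptides load onto class I molecules, and PSMB11 serves in the thymus. PSME1 and PSME2 form an activator that caps the core without ATP, PSME4 is another activator, PSMF1 an inhibitor, and PSMG1 to PSMG4 are chaperones that assemble the core.

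The sequences below are those of array probes for the paired subunits PSMB6 and PSMB9, and for PSMB8 and PSMB10. Only 1 of the 3 PSMB8 probes is printed, and none of the 3 was detected. Whether the position of a probe set its detection was not tested. The sequences are given 5′ to 3′ as the array files hold them, with positions in build Btau_3.1. Capitals mark the 20 bases that the printed stretches of 2 PSMB9 probes share. These 2 probes, at bases 674 and 684 of the transcript, overlap by 50 of their 60 bases and are not independent measurements; 30 bases of each are shown. The coordinates of the PSMB10 probe span more than its 60 bases.
PSMB6 probe at base 671 (chr19:26938979-26939038, minus strand), well above background on 10 arrays: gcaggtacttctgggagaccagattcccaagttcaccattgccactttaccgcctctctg
PSMB9 probe at base 674 (chr23:7399900-7399959, plus strand), on 8 arrays: caagattctaTGACGAGTGAATCTCCTTCC
PSMB9 probe at base 684 (chr23:7399910-7399969, plus strand), on 6 arrays: TGACGAGTGAATCTCCTTCCtcggactctc
PSMB9 probe at base 341 (chr23:7398455-7398514, plus strand), on 0 arrays: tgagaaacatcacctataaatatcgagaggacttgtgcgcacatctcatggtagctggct
PSMB8 probe at base 319 (chr23:7381745-7381804, minus strand), on 0 arrays: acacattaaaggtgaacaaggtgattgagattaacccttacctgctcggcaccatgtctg
PSMB10 probe at base 315 (chr18:34441558-34441728, minus strand), on 0 arrays: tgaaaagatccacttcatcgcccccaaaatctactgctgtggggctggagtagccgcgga

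A probe counts as well above background where the scanner software's flag says so, and the arrays were dim: 7.17% to 19.6% of 43803 probe spots passed. The brightness followed the slide. Each group had 1 array on slide 1 and 1 on slide 2, while slide 3, the brightest, held replicates 3 and 4 of both senktide groups and no vehicle array. The arrays carried the trophectoderm markers of a blastocyst, with 7 of 7 on at least 2 arrays, among them KRT8, and 2 of 3 inner cell mass markers, with NANOG on none. POU5F1 was on 2 arrays of each senktide group and no vehicle array. By the same rule 1 of 3 uterine epithelium markers (CLU), 2 of 5 stroma markers (COL1A2 and DCN) and 1 of 3 blood markers with a probe (HBA) were detected. No vehicle array detected CLU, COL1A2, DCN or HBA. Markers of cumulus and granulosa cells (0 of 6) and of sperm (0 of 2) were on no array. The part of other tissue in these samples was not tested. Levels are log2 of the processed signal relative to each array's 75th percentile over the 2492 probes detected on all 10 arrays. They are not compared between probes, since probes differ in how brightly they bind.

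Most proteasome genes were detected in these embryos. Of the 47 genes, 42 (89.4%) passed the flag on 2 arrays or more and 28 (59.6%) on all 10, against 33.5% and 10.2% of the 13499 other named genes. The core gave 15 of 18 genes, the cap 20 of 21 and the activators and assembly factors 7 of 8. The 5 that were well above background on no array were PSMB8, PSMB10, PSMB11, PSMC3IP and PSMF1. Thus every gene of the alpha ring with a probe, every constitutive beta gene, all 6 ATPases and every PSMD gene on the array was detected on 3 arrays or more, while the undetected genes were 3 of the 4 beta genes of the inducible or thymic cores, the inhibitor and the recombination protein. No test was made of this difference from other genes.

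The number detected differed between arrays. It was 29 and 35 on the vehicle arrays, 40, 37, 41 and 42 after 30 nmol/min, and 37, 40, 42 and 42 after 300 nmol/min. The vehicle arrays were the lowest, and neither overlapped a senktide array. The share of the 47 genes averaged 68.1% ± 9.03 (SD, n = 2) with vehicle, 85.1% ± 4.60 (n = 4) after 30 nmol/min and 85.6% ± 5.03 (n = 4) after 300 nmol/min. For other named genes the mean share was 14.6% with vehicle, 24.5% with 30 nmol/min and 26.1% with 300 nmol/min, the same order. Their single arrays overlapped, with 16.8% on vehicle replicate 2 and 15.5% on replicate 2 of 30 nmol/min. Within slide 1 the 300 and 30 nmol/min arrays had 37 and 40 of the 47 proteasome genes, against 29 with vehicle. Within slide 2 they had 40 and 37, against 35. The shares of other named genes were 18.7% and 20.2%, against 12.4%, within slide 1. Within slide 2 they were 22.8% and 15.5%, against 16.8%. Fewer cells of a type and less RNA per cell cannot be told apart in such bulk samples, and the part of array brightness in these counts was not tested.

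**Figure D1:**
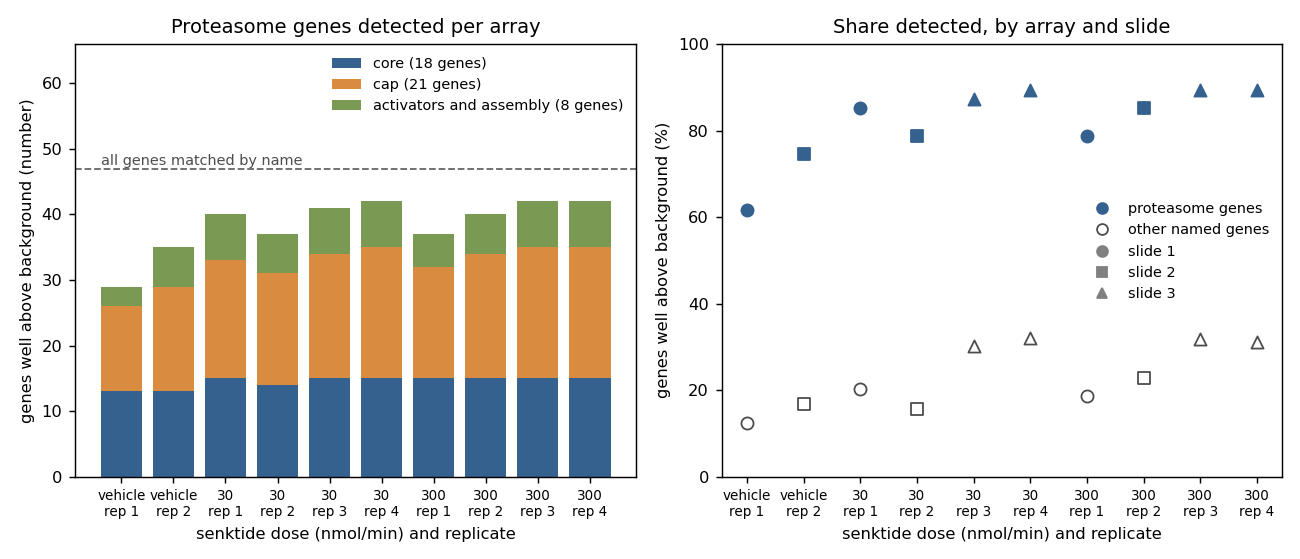
Left, number of proteasome genes well above background on each array, stacked by core, cap, and activators and assembly factors, with the 47 genes as a dashed line. Right, the share of the 47 proteasome genes (filled) and of 13499 other named genes (open) in percent, with the marker giving the slide. The vehicle arrays have 29 and 35 genes, below all senktide arrays, and the slide 3 arrays are highest for both sets.

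No proteasome gene passed the threshold at 300 nmol/min against vehicle. limma called 0 of the 42 tested genes at an adjusted p of 0.05, and 1 of 8936 probes in all (0.0112%). The smallest adjusted p among the genes was 0.236. At an unadjusted p under 0.05 there were 3 higher genes, PSMB9, PSMD6 and PSMD14 (7.14%, against 5.88% of all tested probes), and 1 lower, PSMB7 (2.38%, against 7.92%). The groups did not overlap for 6 genes with higher signal at 300 nmol/min (14.3%, against 9.21% of probes) and 4 with lower signal (9.52%, against 16.3%). The signal was higher in 21 genes and lower in 21, with a median log2 difference of −0.03, against −0.11 for all tested probes. With the 75th percentile taken over every probe instead, these medians became 1.15 and 1.06, so the sign of a small difference depends on the scaling. The genes' median lay 0.09 above that of all probes under both scalings and 0.24 below it with quantile normalization.

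At 30 nmol/min against vehicle limma again called 0 of 42 genes and 0 of 8936 probes (0%). The smallest adjusted p among the genes was 0.315. At an unadjusted p under 0.05 stood 2 higher genes, PSMB9 and PSMD6 (4.76%, against 4.94% of probes), and 1 lower, PSMB7 (2.38%, against 6.32%). The groups did not overlap for 3 genes with higher signal (7.14%, against 7.62%) and 5 with lower signal (11.9%, against 11.9%). Here too 21 genes were higher and 21 lower, with a median of 0.01, against −0.11 for all tested probes. Both comparisons use the same 2 vehicle arrays.

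No proteasome gene passed the threshold between the 2 doses. For 300 against 30 nmol/min limma called 0 of 42 genes and 0 of 8936 probes (0%), with 0 genes at an unadjusted p under 0.05, against 1.68% of probes higher and 1.33% lower. The groups overlapped for all 42 tested genes, where 1.54% of probes lay apart and higher and 1.15% apart and lower. Differences ran from −0.59 to 0.39 with a median of 0.02, and 36 of the 42 were smaller than their own standard error. The smallest unadjusted p was 0.0964. With both doses pooled against vehicle limma called 0 of 42 genes and 3 of 8936 probes (0.0336%); the smallest adjusted p was 0.195, and 4 genes were higher at an unadjusted p under 0.05 (PSMB9, PSMD6, PSMD10 and PSMD14; 9.52%, against 6.1% of probes) and 1 lower (PSMB7; 2.38%, against 8.76%). All 8 senktide arrays lay above both vehicle arrays in 3 genes, PSMD10, PSMD3 and PSMD6 (7.14%, against 4.32% of probes), and below them in 3, PSMB7, PSMC5 and PSMD7 (7.14%, against 7.02%).

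**Figure D2:**
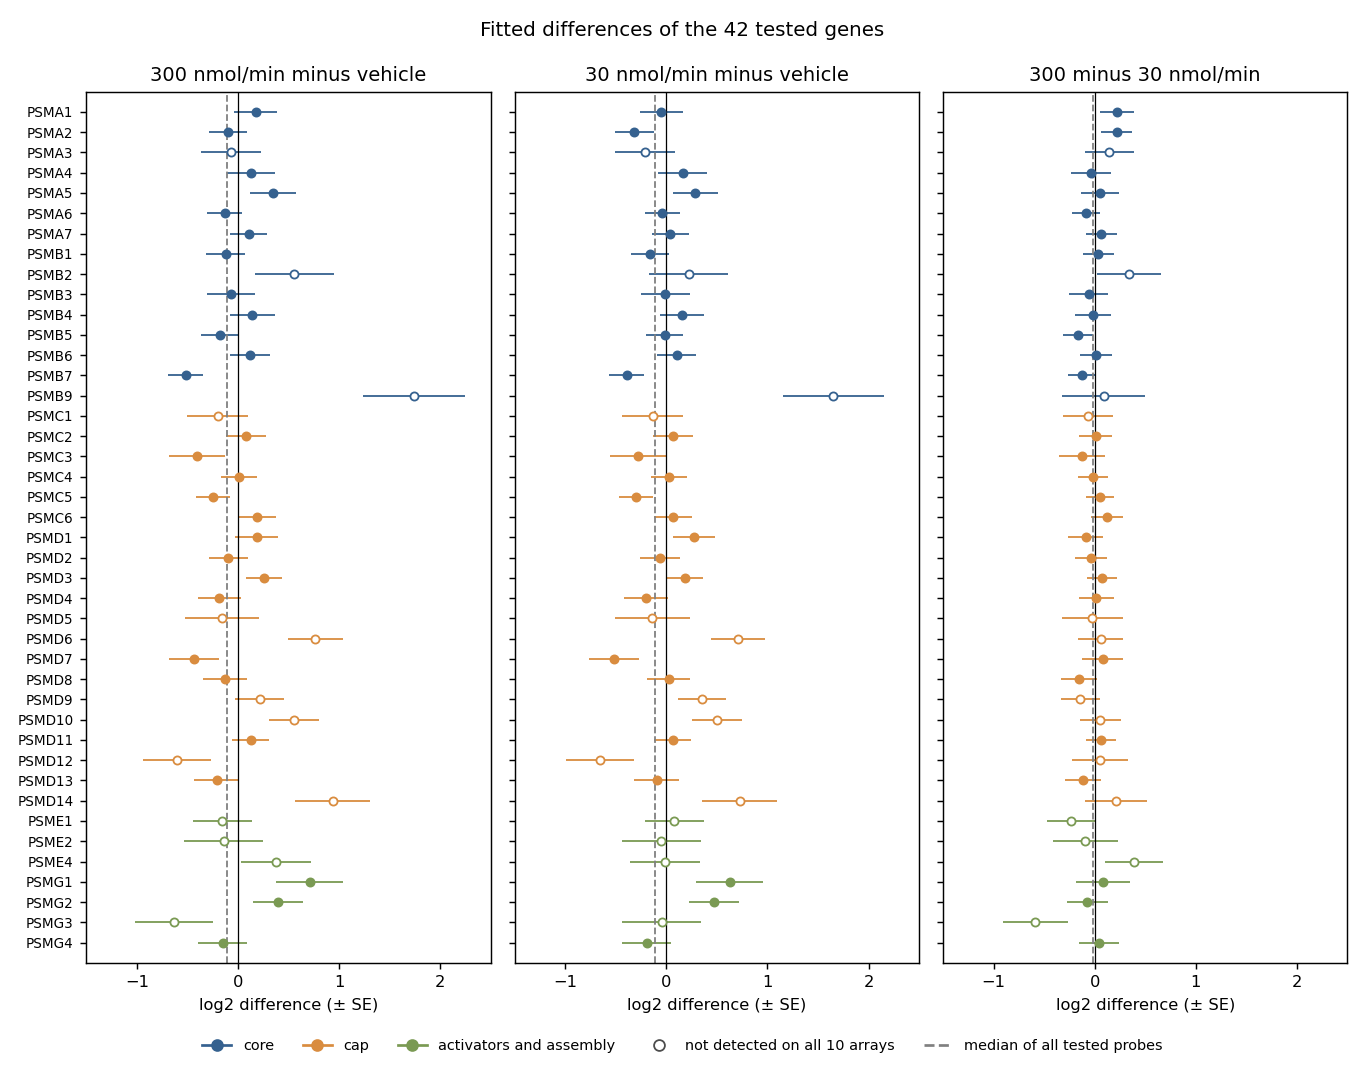
Fitted log2 difference with its standard error for each of the 42 tested genes, for 300 nmol/min minus vehicle (left), 30 nmol/min minus vehicle (middle) and 300 minus 30 nmol/min (right). Filled points are the 28 genes detected on all 10 arrays, and the dashed line is the median of all tested probes. Most genes lie within 0.5 of 0, PSMB9 lies farthest right against vehicle, and the right panel is the narrowest.

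Genes that were detected everywhere lay close to vehicle on the main scale, as most such probes did. That scale is itself set on the probes detected on all 10 arrays, so this closeness follows in part from it. Of the 28 genes well above background on all 10 arrays, 26 differed by less than 0.5 log2 at 300 nmol/min (87.3% of the 2492 such probes did), 26 at 30 nmol/min (88.6%) and 28 between the doses (98.4%). The spread between samples of a group had a median SD of 0.17 for these 28 genes and 0.22 for all such probes. Beyond 0.5 lay PSMB7 and PSMG1 at 300 nmol/min and PSMD7 and PSMG1 at 30 nmol/min. The standard error of a difference from vehicle had a median of 0.23 over the 42 genes and ran from 0.17 to 0.50.

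The alpha ring lay near vehicle in the group means of its brightest probes. All 7 of its genes on the array, PSMA1 to PSMA7, were tested, and 6 were well above background on all 10 arrays; PSMA3 missed 1 vehicle array. Differences from vehicle ran from −0.13 to 0.34 at 300 nmol/min and from −0.32 to 0.29 at 30 nmol/min. The slides did not always match: at 300 nmol/min PSMA3 differed by −0.72 within slide 1 and 0.85 within slide 2, and PSMA5 by −0.03 and 0.78. Further tested probes of PSMA2, PSMA5, PSMA6 and PSMA7 ran from −0.73 to 0.28 at 300 and from −0.85 to 0.38 at 30 nmol/min. PSMA6 lay at 0.52 ± 0.12 (SD, n = 2) with vehicle, 0.48 ± 0.05 (n = 4) after 30 nmol/min and 0.39 ± 0.11 (n = 4) after 300 nmol/min, and its groups overlapped. PSMA2 differed by −0.32 (SE 0.19, limma adjusted p = 0.52) at 30 nmol/min, where its groups did not overlap, and by −0.10 at 300 nmol/min, where they did.

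The catalytic subunits of the ordinary core, PSMB6, PSMB7 and PSMB5, were well above background on all 10 arrays. PSMB6, the caspase-like site, had log2 signals of −1.47 and −1.35 with vehicle, −1.35, −1.06, −1.33 and −1.49 after 30 nmol/min, and −1.27, −1.41, −1.40 and −1.09 after 300 nmol/min. PSMB5, the chymotrypsin-like site, had −0.07 and 0.03 with vehicle, −0.19, 0.06, −0.10 and 0.08 after 30 nmol/min, and −0.13, −0.35, −0.30 and −0.03 after 300 nmol/min. The groups of both genes overlapped in every comparison. Their differences at 300 nmol/min were 0.12 (SE 0.20) for PSMB6 and −0.18 (SE 0.19) for PSMB5, with limma adjusted p = 0.80 and 0.65.

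PSMB7, the trypsin-like site, was the constitutive catalytic gene whose groups lay apart. Its signals were 1.01 and 1.08 with vehicle, 0.82, 0.49, 0.67 and 0.64 after 30 nmol/min, and 0.55, 0.46, 0.55 and 0.56 after 300 nmol/min. All 8 senktide arrays lay below both vehicle arrays, and the doses overlapped. On the main scale the signal was 1.43-fold lower at 300 nmol/min (log2 −0.52, SE 0.17, limma adjusted p = 0.273) and 1.31-fold lower at 30 nmol/min (−0.39, SE 0.17, adjusted p = 0.44), neither past the threshold. Within slide 1 the 300 and 30 nmol/min arrays differed from vehicle by −0.46 and −0.19, and within slide 2 by −0.62 and −0.59. Relative to the median of all tested probes its difference at 300 nmol/min lay between −0.89 and −0.41 under the scalings tried. The second PSMB7 probe, well above background on 4 arrays, differed by −0.06 at 300 nmol/min and by 0.40 at 30 nmol/min.

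PSMB9, the immunoproteasome counterpart of PSMB6, was detected in the senktide groups and not with vehicle. Its probe at base 674 was well above background on 4 of 4 arrays at 300 nmol/min and 4 of 4 at 30 nmol/min, against 0 of 2 with vehicle. The log2 signals were −4.15 and −5.63 with vehicle, −2.87, −2.44, −4.17 and −3.49 after 30 nmol/min, and −3.18, −2.88, −3.19 and −3.35 after 300 nmol/min. At 300 nmol/min every array lay above both vehicle arrays, while at 30 nmol/min the slide 3 array at −4.17 fell just below the vehicle array at −4.15. Before scaling, the processed signals within slide 1 were 19.8 and 24.5 at 300 and 30 nmol/min, against 4.46 with vehicle, and within slide 2 they were 18.8 and 18.3, against 2.49. Such unscaled signals include the brightness of the array. The signal used as the array's scale was 180 and 179, against 79.5 with vehicle, on slide 1, and 138 and 99.6, against 124, on slide 2.

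The PSMB9 difference did not pass the threshold and has no fold. The fitted log2 difference was 1.74 (SE 0.50, limma adjusted p = 0.236) at 300 nmol/min and 1.65 (SE 0.50, adjusted p = 0.315) at 30 nmol/min. Neither vehicle signal behind these values was well above background. The lowest signal well above background was −2.56 and −3.30 on the vehicle arrays, and with such floors no bound above 1 could be set on the main scale. Scaled by the 75th percentile of every probe, the signal was at least 1.94-fold higher at 300 and at least 1.68-fold higher at 30 nmol/min, and by the median of every probe at least 2.31-fold and 2.01-fold higher. These bounds include a shift of all tested probes. Their median log2 difference at 300 and 30 nmol/min was 1.06 and 0.95 by the 75th percentile, and 1.31 and 1.21 by the median. Within slide 2 the bounds were 1.34 and 1.82, without vehicle replicate 1 they were 1.11 and 1.04, and within slide 1 there was none above 1. Over the alternative settings the adjusted p ran from 0.0117 to 0.726 at 300 and from 0.0151 to 0.891 at 30 nmol/min, and quantile normalization put the gene past the threshold at both doses (adjusted p = 0.0117 at 300 and 0.0151 at 30 nmol/min, each by limma). With every value raised to its array's detection floor, the differences were −0.22 and −0.31. The overlapping probe at base 684 differed by 1.51 and 1.30, and the probes at bases 541 and 341 were well above background on no array.

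The other variant beta genes could not be read. PSMB8, the counterpart of PSMB5, had 3 probes, PSMB10, the counterpart of PSMB7, had 1 and the thymic PSMB11 had 1, and none was well above background on any of the 10 arrays. PSMB8 and PSMB9 lie near each other on chromosome 23 with only TAP1, a subunit of the peptide transporter, between them in RefSeq, and PSMB5 lies next to PSMB11. The PSMB8 probe printed above gave processed signals of 3.05 to 9.36 over the 10 arrays, where the lowest signals well above background were 9.47 to 14.9. The other PSMB8 probes, at bases 757 and 949 of the same transcript, were undetected too, so for PSMB8 the position printed above was not the only one below background. PSMB10 was measured at base 315 alone, and the PSMB9 probe at base 341 was undetected on the arrays that detected the probe at base 674.

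**Figure D3:**
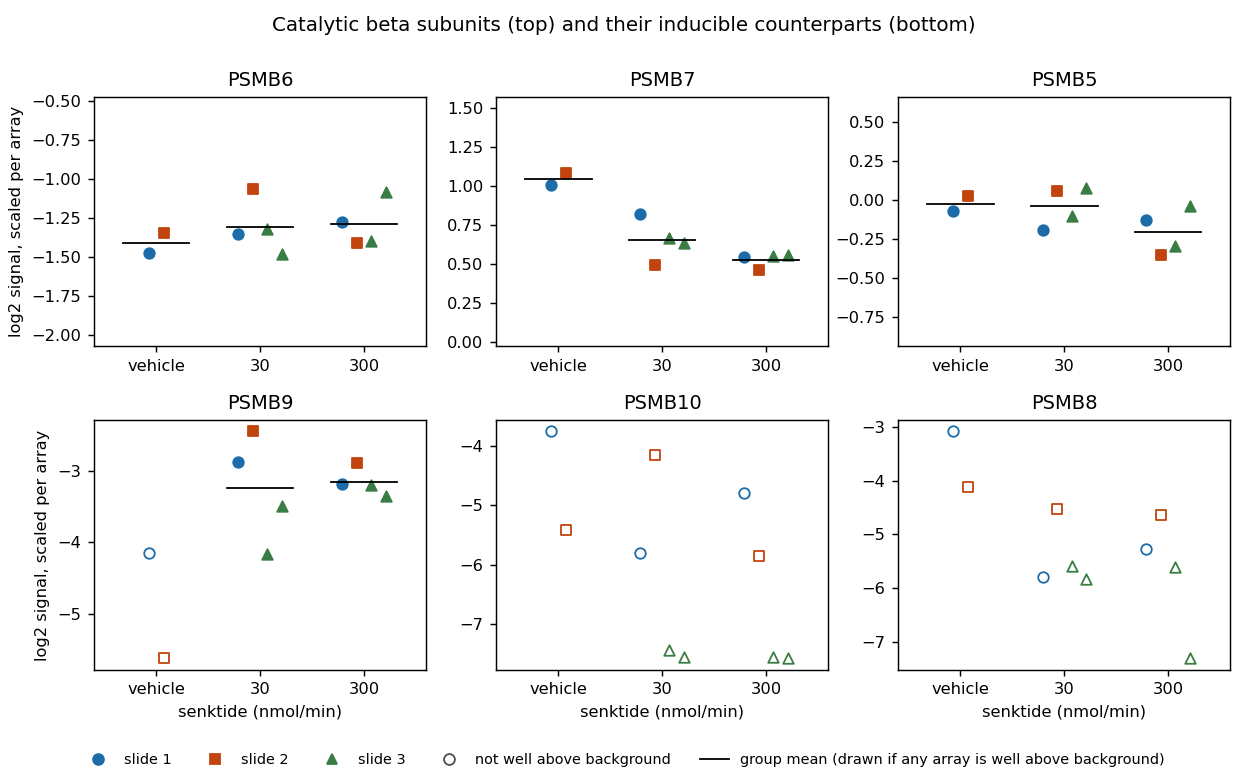
Log2 signal of the catalytic beta genes (top) and of their immunoproteasome counterparts (bottom) on each array, by senktide dose, with its own vertical scale in each panel. Open markers are arrays not well above background, marker shape and colour give the slide, and lines are group means. PSMB7 lies lower on all 8 senktide arrays than with vehicle, PSMB9 is filled on the 8 senktide arrays and open on the 2 vehicle arrays, and PSMB8 and PSMB10 are open throughout.

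Genes that read out or accompany the immunoproteasome did not pass the threshold either. Of 8 genes of antigen processing and interferon response, 4 were tested and limma called 0, with 0 at an unadjusted p under 0.05 at either dose. Of all tested probes 5.88% were higher and 7.92% lower by that rule at 300 nmol/min, so a count of 0 among 4 genes is near the background. B2M, the light chain of class I molecules, was detected on every array and differed by 0.06 (SE 0.20) and 0.09 (SE 0.20) at 300 and 30 nmol/min. TAP1, TAP2, TAPBP and NLRC5 were on no array. Of 10 leukocyte markers, 3 were tested: LYZ on all arrays, and PTPRC and ITGB2 on 5 and 4 senktide arrays and no vehicle array. CD68, CD14, S100A8, S100A9 and CD3E were on none. The summed leukocyte signal, in units of the array's scale, was 0.46 to 0.64 at 300 and 0.38 to 0.95 at 30 nmol/min, against 0.76 to 0.82 with vehicle. Most of the 10 markers were below background, where a dimmer array gives a higher scaled value, so these sums do not order the groups by leukocytes. The part of such cells in the PSMB9 signal was not tested.

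The remaining beta genes, PSMB1 to PSMB4, carry no cutting site, and all but PSMB2 stood near vehicle by their brightest probes. PSMB1, PSMB3 and PSMB4 were by these probes on all 10 arrays with differences between −0.16 and 0.16 at both doses. The second PSMB4 probe, also on all 10 arrays, differed by 0.59 (SE 0.30) at 300 and 0.64 (SE 0.30) at 30 nmol/min, with limma adjusted p = 0.39 and 0.46. A second PSMB3 probe, on no vehicle array, had fitted differences of 1.04 and 1.09. PSMB2, on 8 arrays, lay at −2.77 ± 0.40 (SD, n = 2) with vehicle, −2.55 ± 0.65 (n = 4) after 30 nmol/min and −2.21 ± 0.25 (n = 4) after 300 nmol/min. It differed by 0.56 (SE 0.39, limma adjusted p = 0.50) at 300 nmol/min, and its second probe by −0.17.

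The ATPases of the cap, PSMC1 to PSMC6, which unfold the substrate, were all tested, and all but PSMC1 were on all 10 arrays. Differences ran from −0.40 to 0.19 at 300 nmol/min and from −0.30 to 0.07 at 30 nmol/min. PSMC5 had no overlap with vehicle at either dose: it lay at 0.10 ± 0.14 (SD, n = 2) with vehicle, −0.20 ± 0.04 (n = 4) after 30 nmol/min and −0.15 ± 0.09 (n = 4) after 300 nmol/min. The difference was −0.25 (SE 0.17) at 300 and −0.30 (SE 0.17) at 30 nmol/min, with a limma adjusted p of 0.50 for each. PSMC3 had the lowest difference at 300 nmol/min, −0.40 (SE 0.28), and overlapped vehicle. PSMC4 had 2 probes of identical sequence, which measure the precision of a spot: over the 10 arrays they differed with an SD of 0.11 log2, and their differences from vehicle at 300 nmol/min were 0.01 and 0.10.

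Among the other cap genes, PSMD6 and PSMD14 had the smallest unadjusted p with higher signal. PSMD6, a scaffold subunit of the lid, had signals of −2.37 and −1.74 with vehicle, −1.18, −1.64, −1.47 and −1.10 after 30 nmol/min, and −1.18, −1.70, −1.10 and −1.18 after 300 nmol/min. All senktide arrays lay above both vehicle arrays, the first of which was not well above background. The difference was 0.77 (SE 0.27, limma adjusted p = 0.287) at 300 and 0.71 (SE 0.27, adjusted p = 0.396) at 30 nmol/min. It was 1.19 and 1.19 within slide 1 and 0.04 and 0.11 within slide 2, so it was larger on slide 1.

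PSMD14, the enzyme that cuts ubiquitin off the substrate, had signals of −3.50 and −2.03 with vehicle, −1.90, −1.97, −2.05 and −2.23 after 30 nmol/min, and −2.10, −1.54, −1.57 and −2.09 after 300 nmol/min. Vehicle replicate 1, not well above background, was the lowest, and vehicle replicate 2 lay within the range of both senktide groups. The difference was 0.94 (SE 0.37, limma adjusted p = 0.322) at 300 and 0.73 (SE 0.37, adjusted p = 0.478) at 30 nmol/min. Without vehicle replicate 1 the differences were 0.20 and −0.01. Its second probe went the other way, by −0.51 and −0.61. PSMD14 therefore had no direction that both probes shared.

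PSMD7, the partner of PSMD14 in the lid, was on all 10 arrays, with signals of −0.47 and −0.48 with vehicle, −0.67, −1.36, −1.16 and −0.77 after 30 nmol/min, and −1.0, −0.98, −0.59 and −1.08 after 300 nmol/min. Both vehicle arrays lay above every senktide array. On the main scale the signal was 1.35-fold lower at 300 (log2 −0.43, SE 0.25, limma adjusted p = 0.431) and 1.43-fold lower at 30 nmol/min (−0.51, SE 0.25, adjusted p = 0.467). Both slides showed this direction, by −0.52 and −0.50 at 300 nmol/min and by −0.20 and −0.88 at 30 nmol/min. Scaled by the 75th percentile of every probe, the differences were 0.74 and 0.54, so the sign depends on the scaling. Relative to the median of all tested probes they lay between −0.81 and −0.32 at 300 and between −0.83 and −0.41 at 30 nmol/min under the scalings tried. The spread among senktide arrays was wider than between the 2 vehicle arrays.

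PSMD10 and PSMD12 were on no vehicle array. PSMD10, known as gankyrin, is a chaperone of cap assembly and had signals of −3.70 and −3.48 with vehicle, −3.06, −2.63, −3.47 and −3.20 after 30 nmol/min, and −3.03, −2.87, −2.98 and −3.26 after 300 nmol/min, well above background on all 8 senktide arrays. All senktide arrays lay above both vehicle arrays, the nearest of them, at −3.47, just above the vehicle array at −3.48. Its fitted difference was 0.56 (SE 0.25, limma adjusted p = 0.363) and 0.50 (SE 0.25, adjusted p = 0.476). PSMD12, a lid subunit, had −2.54 and −3.46 with vehicle, −3.70, −3.43, −3.63 and −3.87 after 30 nmol/min, and −3.91, −2.97, −3.56 and −3.97 after 300 nmol/min, with 2 and 3 arrays well above background. No vehicle signal of either gene was well above background, and on the main scale no bound above 1 could be set, so no fold is given. For PSMD10 scaling over all probes gave bounds: by the 75th percentile its signal was at least 2.10-fold higher at 300 and at least 1.87-fold higher at 30 nmol/min. They include a shift of all tested probes, whose median log2 difference was then 1.06 and 0.95. Within slide 2 the bounds were 1.35 and 1.6, and within slide 1 there was none above 1.

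**Figure D4:**
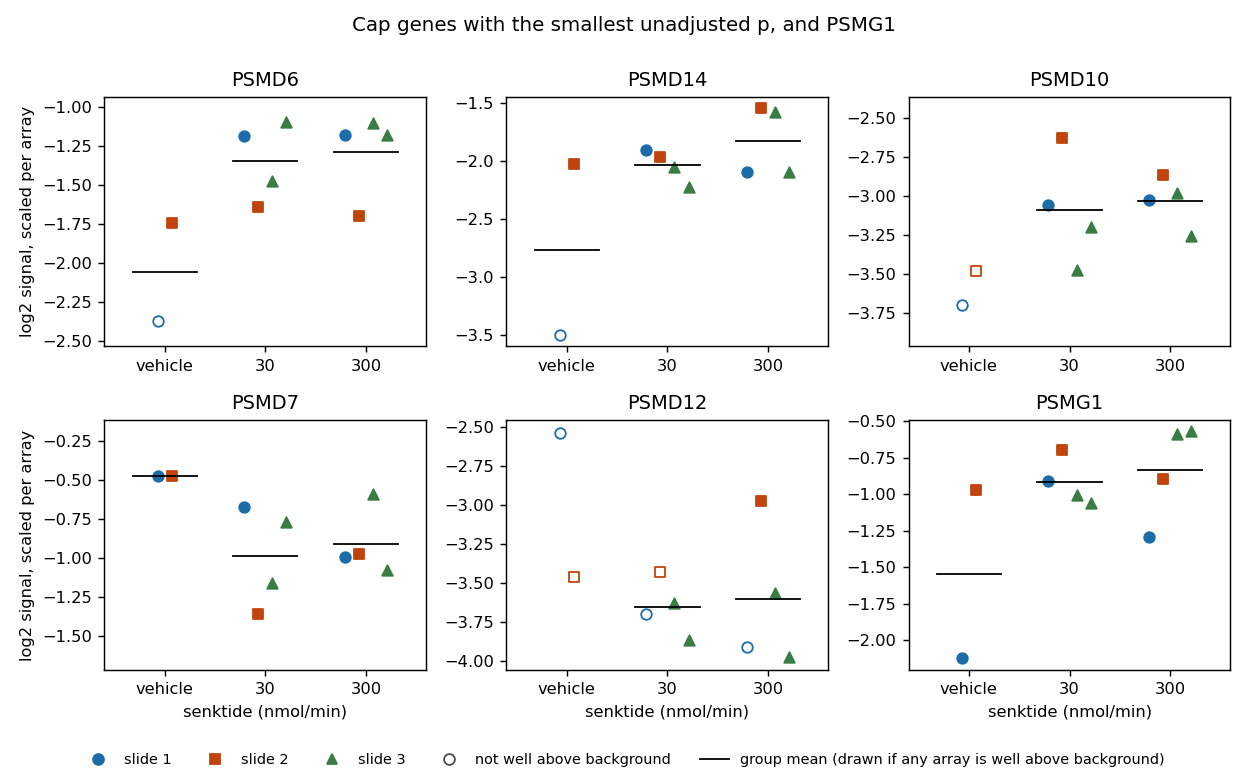
Log2 signal of 5 cap genes and of the assembly chaperone PSMG1 on each array, by senktide dose, each panel with its own vertical scale. Open markers are arrays not well above background, marker shape and colour give the slide, and lines are group means, drawn only where an array of the group was well above background. Vehicle replicate 1 (slide 1) is the lowest point for PSMD6, PSMD14, PSMD10 and PSMG1, and both vehicle arrays lie highest for PSMD7.

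The remaining PSMD genes were near vehicle by their brightest probes. PSMD1 and PSMD2, the scaffolds of the cap base, and PSMD4, a ubiquitin receptor, were on all 10 arrays, and so were PSMD3, PSMD8, PSMD11 and PSMD13, with differences between −0.21 and 0.27 at the 2 doses. PSMD3 did not overlap vehicle at either dose, at −0.39 ± 0.05 (SD, n = 2) with vehicle, −0.21 ± 0.08 (n = 4) after 30 nmol/min and −0.13 ± 0.16 (n = 4) after 300 nmol/min. Its limma adjusted p was 0.51 at 300 and 0.68 at 30 nmol/min. The assembly chaperones PSMD5 and PSMD9 were on 3 and 9 arrays and differed by −0.16 (SE 0.37) and 0.21 (SE 0.24) at 300 nmol/min. Within slides 1 and 2 these differences were −0.98 and 0.49 for PSMD5, which was on no vehicle array, and 0.34 and −0.11 for PSMD9.

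The activators were detected at low signal. PSME1 had signals of −2.64 and −2.36 with vehicle, −2.62, −1.74, −2.51 and −2.82 after 30 nmol/min, and −2.86, −2.52, −2.55 and −2.68 after 300 nmol/min. PSME2, its partner, had −2.20 and −2.84 with vehicle, −2.76, −2.26, −2.39 and −2.87 after 30 nmol/min, and −3.08, −1.74, −2.80 and −3.04 after 300 nmol/min. The groups of both overlapped in every comparison. At 300 nmol/min PSME1 differed by −0.15 (SE 0.29) and PSME2 by −0.14 (SE 0.39), with limma adjusted p = 0.82 and 0.89. Their second probes were farther from vehicle. That of PSME1, on 4 arrays, had fitted differences of 0.46 at 300 and 0.77 at 30 nmol/min. That of PSME2, on 5 arrays, had −0.79 and −0.90. These genes lie on chromosome 10 with only EMC9 between them in RefSeq, and each was on 1 of the 2 vehicle arrays.

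PSME4, an activator known from mouse testis for the breakdown of histones, had signals of −3.15 and −1.82 with vehicle, −2.56, −2.37, −2.74 and −2.30 after 30 nmol/min, and −2.42, −1.82, −1.97 and −2.21 after 300 nmol/min. The 2 vehicle arrays were the farthest apart, and all groups overlapped. The difference was 0.38 (SE 0.35, limma adjusted p = 0.61) at 300 and −0.01 (SE 0.35, adjusted p = 0.99) at 30 nmol/min. A second PSME4 probe, on 8 arrays, differed by −0.18 and −0.39. PSMF1, the inhibitor, had 3 probes and was on no array.

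The assembly chaperones PSMG1 and PSMG2, which work as a pair on the alpha ring, were on all 10 arrays and had higher mean signal at both doses without passing the threshold. PSMG1 lay at −1.55 ± 0.82 (SD, n = 2) with vehicle, −0.92 ± 0.16 (n = 4) after 30 nmol/min and −0.84 ± 0.34 (n = 4) after 300 nmol/min, and PSMG2 at −1.20 ± 0.48 with vehicle, −0.73 ± 0.25 with 30 nmol/min and −0.80 ± 0.15 with 300 nmol/min. The difference was 0.71 (SE 0.33) and 0.63 (SE 0.33) for PSMG1 and 0.40 (SE 0.25) and 0.47 (SE 0.25) for PSMG2 at 300 and 30 nmol/min, with limma adjusted p from 0.37 to 0.49. Both overlapped vehicle, since vehicle replicate 2 of PSMG1 lay at −0.97. Within slide 1 PSMG1 differed by 0.83 at 300 and 1.22 at 30 nmol/min and within slide 2 by 0.07 and 0.27, while PSMG2 differed by −0.07 and 0.13 within slide 1 and by 0.94 and 1.14 within slide 2, so each difference rests mainly on 1 vehicle array. A second PSMG1 probe, on 6 arrays, and a second PSMG2 probe, on 8, had higher fitted signals but were on no vehicle array, so no fold is given. The remaining PSMG2 probe, on all 10 arrays, differed by −0.02 and −0.12. PSMG1 and PSMG2 were singled out after their values were seen. PSMG4 was on all 10 arrays and differed by −0.15 and −0.19, and PSMG3, on 5 arrays and no vehicle array, by −0.63 (SE 0.39) and −0.05 (SE 0.39). The vehicle level of PSMG3 was below background, so the direction of its fitted differences is not established.

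No partner of the proteasome outside the name rule passed the threshold, where only 1 of 8936 probes did at 300 and 0 at 30 nmol/min. Of 14 partner genes 12 were tested, 5 with higher and 7 with lower signal at each dose and a median of −0.01 at 300 and −0.02 at 30 nmol/min; limma called 0. At an unadjusted p under 0.05 there were 0 at 300 nmol/min and 1 lower, UCHL5, at 30 nmol/min, where 6.32% of all tested probes were lower. POMP, which helps the core assemble, was on all arrays and differed by −0.03 (SE 0.20) and −0.08 (SE 0.20). UCHL5, a deubiquitinase of the cap, differed by −0.35 (SE 0.19, limma adjusted p = 0.417) and −0.45 (SE 0.19, adjusted p = 0.426). Of 9 genes for ubiquitin and its activating enzymes 7 were tested, with medians of 0.09 and 0.12; limma called 0, with 0 at an unadjusted p under 0.05 at either dose, against the same background. UBB and RPS27A, which encode ubiquitin, were on all 10 arrays.

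Of 6 genes that control proteasome transcription 4 were tested, and limma called 0, with 1 higher gene at 300 nmol/min and 0 genes at 30 nmol/min below an unadjusted p of 0.05, against 5.88% and 4.94% of all tested probes. NFE2L1, the factor that raises subunit genes when the proteasome is blocked, was on 3 arrays of each senktide group and no vehicle array and differed by 0.20 (SE 0.33) and 0.43 (SE 0.33). NGLY1, which removes sugars from NFE2L1, differed by 0.81 (SE 0.33, limma adjusted p = 0.329) at 300 nmol/min and was likewise on no vehicle array. Of 14 shuttle and segregase genes, which bring substrates to the proteasome, 9 were tested and limma called 0, with 2 lower at an unadjusted p under 0.05 at each dose, against 7.92% of all tested probes at 300 and 6.32% at 30 nmol/min. FAF1, a partner of the segregase VCP, was on all 10 arrays and differed by −0.98 (SE 0.28, limma adjusted p = 0.231) and −0.83 (SE 0.28, adjusted p = 0.341). FAF2, a related adaptor, was on 2 arrays of each senktide group and no vehicle array. Its fitted differences were −1.73 and −1.35 (limma adjusted p = 0.172 and 0.301). The vehicle level behind them was below background and depends on the scaling, so the direction for FAF2 is not established and no fold is given. VCP itself differed by −0.03 (SE 0.22) and 0.04 (SE 0.22).

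Probes of 1 gene did not always move together, and detection often differed with the position of the probe. Of 22 tested genes with a further tested probe, all further probes shared the direction of the brightest at 300 nmol/min in 11, none did in 6 and some did in 5; at 30 nmol/min these numbers were 10, 7 and 5. The brightest PSMB3 probe, for example, differed by −0.07 and −0.01 at 300 and 30 nmol/min, and a second, on 4 arrays and no vehicle array, had a fitted difference of 1.04 and 1.09. Among 30 genes with at least 2 probes on the same transcript, the probe nearest the 3′ end was on more arrays than the one nearest the 5′ end in 18 genes, on as many in 9 and on fewer in 3. On the PSMA7 transcript the probes at bases 703, 881 and 888 were on all 10 arrays and that at base 167 on 2. Another PSMA7 probe, at base 1029 of another accession, was on none.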

How the data were processed

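Cy3-labelled RNA of 10 samples was hybridised to 1-colour Agilent bovine arrays, 1 per sample, per the labels. The deposited scanner files hold intensity values from Feature Extraction, version 11.5.1.1 in the file headers and 10.5.1.1 in the submitters' processing notes. Per the file headers their background was subtracted and a spatial trend removed, low values carry a surrogate, and arrays are not scaled to each other. Flags (0 or 1) mark spots well above background and outlier spots, which were left out; 0 probe spots were saturated. The deposited log2 series matrix has no stated scale. Its values could be rebuilt, within 0.01 for over 99.9% of them, by subtracting from the log2 processed signal the 75th percentile of every probe on the array and then the probe's own median. The medians of its columns in the vehicle group were 0.22 and 0.12. They were 0.045, 0.066, −0.13 and −0.31 with 30 nmol/min senktide, and 0.16, −0.18, −0.28 and −0.23 with 300 nmol/min.

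Main values were log2 processed signals minus the array's 75th percentile over the 2492 probes that every one of the 10 arrays detected. The 8936 of 43653 probes well above background on at least 2 arrays were fitted with limma 3.58.1 (R 4.3.3), 1 coefficient per group over all arrays, with Benjamini-Hochberg adjustment over all 8936 and a threshold of 0.05; the code was tested on simulated data. The number of arrays limits the precision. Where every array of a group was below background for a probe, its level there was taken as a bound. On each such array the measured signal or the faintest detected signal was used, whichever was higher, and no fold is given where the other group's mean did not exceed the mean of these. Python 3.11.15, pandas 2.3.3, numpy 2.4.6 and matplotlib 3.10.9 were used.

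Genes named by rule were the 3 higher and 3 lower with the smallest p in each comparison with vehicle, PSMB5 to PSMB11 and the PSME genes. To these came, over the lists of partner genes, the 3 with the smallest p in each comparison with vehicle. Of the genes named by rule, the tested proteasome genes are given array by array and the list genes by fitted differences. PSMB8, PSMB10 and PSMB11, which were not detected, are not given array by array. Further genes were named after their values were seen. Some genes of these lists are not reported here. The members and lists were chosen with earlier results of these data known. RefSeq (ARS-UCD2.0) was used for names and neighbours only; coordinates are those of the files (Btau_3.1 per the file headers). Replicate numbers come from the titles. Over the tested probes, deviations from group means correlated at 0.487, 0.494, 0.565 and 0.574 in same-numbered senktide pairs. Different-numbered senktide pairs had 0.544 and 0.492 within slide 3, and 0.413 and 0.417 between slides 1 and 2. Same-numbered pairs also share a slide, so a pairing by number cannot be told apart from the slide. Vehicle arrays correlated at 0.12 and −0.19 with the same-numbered arrays at 30 nmol/min and at 0.18 and −0.20 at 300 nmol/min.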

Additional observations from a re-analysis of the deposited data

Results flagged for a closer look

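In 28 groups of 4 arrays, 1 array stood far from the other 3, relative to their spread, in 2 cases. Chance alone flags about 1 in 20 groups, so 2 among 28 is near that rate. PSMB7 on replicate 2 of the 300 nmol/min group was at a log2 signal of 0.46, against 0.55 to 0.56 on the other 3 arrays. This gap is smaller than the SD of 0.11 between the 2 identical PSMC4 probes. PSMD6 on the same array was at −1.70, against −1.18 to −1.10. Both gaps were on slide 2. The cause was not tested.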

How the results depend on the processing

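With 2 vehicle arrays and 7.17% to 19.6% of spots well above background, faint genes are the least certain: values below background depend on the background correction and scaling. Over 22 alternatives, 439 values of single genes kept their direction and side of the threshold, 69 changed sign and 4 came past it. Numbers of genes past the threshold by limma stayed at 0 in all comparisons except as follows, and the causes were not tested. With quantile normalization they were 2 at 300 nmol/min (PSMB9, 2.89, adjusted p = 0.0117; PSMD10, 1.42, adjusted p = 0.0494), 1 at 30 nmol/min (PSMB9, 2.85, adjusted p = 0.0151) and 2 with both doses. With normexp and quantile normalization they were 1 at 300 nmol/min (PSMB9, 0.56, adjusted p = 0.044) and 1 with both doses.

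Scaling to the 75th percentile of all probes, or the series matrix, moved the median of all tested probes to 1.06 at 300 and 0.95 at 30 nmol/min, and the genes' medians to 1.15 and 1.06, 0.13 between doses and 1.1 for both doses. At 300 nmol/min PSMB5 was then at 0.99, PSMB7 0.65, PSMD12 0.57, PSMD7 0.74, PSME1 1.02 and PSME2 1.03, and at 30 nmol/min PSMB5 at 1.04, PSMB7 0.67, PSMD12 0.40, PSMD7 0.54, PSME2 1.01 and PSME4 1.05. With each array's median as the scale, the genes' medians were 1.40, 1.33, 0.12 and 1.36, against 1.31 and 1.21 for all probes; PSMB5 was at 1.25, PSMB7 0.91, PSMD12 0.82, PSMD7 0.99, PSME1 1.27 and PSME2 1.29 at 300 nmol/min, and PSMB5 at 1.30, PSMB7 0.93, PSMD12 0.67, PSMD7 0.81, PSME2 1.27 and PSME4 1.31 at 30 nmol/min. Quantile normalization gave medians of 0.14, 0.10 and, for both doses, 0.13, with PSME1 at 0.20 and PSME2 at 0.13 at 300 nmol/min and PSMB5 at 0.0070, PSME2 0.18 and PSME4 0.54 at 30 nmol/min. With normexp the medians were 0.064 at 300 nmol/min and 0.072 for both doses, PSME1 was at 0.087 and PSME2 at 0.075 at 300 nmol/min, and PSME2 at 0.11 at 30 nmol/min.

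With the replicate block, and likewise with the slide block, the median for both doses was 0.063 and that at 300 nmol/min 0.042, both against a main value below 0, PSME2 was at 0.018 at 300 and 0.11 at 30 nmol/min, and 0 genes passed the threshold in any comparison, as in the main analysis. On slides 1 and 2 alone the medians were 0.058 at 300 nmol/min and 0.063 for both doses, PSME2 was at 0.11 at 300 and 0.014 at 30 nmol/min and PSME4 at 0.018 at 30 nmol/min. Raising values to the detection floor put PSMB9 at −0.22 and −0.31 and PSMD10 at −0.10 and −0.16. The median over all tested probes of a gene gave 0.089 at 300 nmol/min, and the most downstream probe, an alternative added after seeing the data, 0.060.

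Leaving out 1 array at a time, the median at 300 nmol/min ran from −0.047 to 0.048. PSME2 ran from −0.46 to 0.18 and PSME4 from −0.29 to 1.05 at 300 nmol/min. At 30 nmol/min PSMB5 ran from −0.063 to 0.034, PSMD14 from −0.012 to 1.47, PSME1 from −0.15 to 0.22, PSME2 from −0.37 to 0.27 and PSME4 from −0.67 to 0.66.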
